A study of Homo sapiens with 4 samples.

Results

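The mRNAs of the factors that start, carry forward and end protein synthesis were followed in 22RV1 and PC3 prostate cancer cells with and without DDX52 knockdown. Members were taken by symbol among protein-coding genes on the autosomes and the X chromosome. They were the 55 genes whose symbol begins with EIF and a digit, together with 11 genes for elongation, termination and poly(A) binding (EEF1A1, EEF1A2, EEF1B2, EEF1D, EEF1G, EEF2, EEF2K, ETF1, GSPT1, PABPC1 and PABPC4). This gave 66 genes of the 60671 in the files, 19816 of which were protein-coding on those chromosomes. The symbol rule also takes in a few genes whose main work is not initiation, such as EIF4A3, a subunit of the exon junction complex, and EIF6, which binds the large ribosomal subunit during its assembly.

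22RV1 and PC3 are established human prostate carcinoma lines. Each was infected with lentivirus from the PLKO.1 vector, carrying either a non-target hairpin (shCON) or 1 hairpin against DDX52 (shDDX52), and stable transformants were selected with puromycin, so the control cells also carried vector and drug selection. RNA-seq was performed on the 4 conditions, 22RV1 shCON, 22RV1 shDDX52, PC3 shCON and PC3 shDDX52. Each condition had 1 library, so no difference below has a replicate check, no test was made, and an effect of the hairpin that does not pass through DDX52 cannot be told apart from the knockdown.

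Translation begins when the 43S complex, a small ribosomal subunit with eIF1, eIF1A, eIF3, eIF5 and the ternary complex of eIF2, GTP and initiator tRNA, is brought to a capped mRNA by eIF4E, eIF4G and the helicase eIF4A. eIF2B recharges eIF2 with GTP, kinases that phosphorylate eIF2 alpha block this step, and the 4E-BPs hold eIF4E away from eIF4G. Many mRNAs of this machinery begin with a terminal oligopyrimidine (TOP) tract, through which their translation is tied to growth signalling, and MYC is known to raise the transcription of many initiation factor genes through the CACGTG E-box.

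Because both features lie at the transcription start, the start sites were examined first. RefSeq promoters on GRCh38.p14, covering 250 bases before and 50 bases after each start, were found for 53 of the 66 genes, 72 promoters in all. There was no entry for EEF1A2, EEF1D, EIF2AK1, EIF2S2, EIF3A, EIF3CL, EIF3E, EIF3G, EIF3H, EIF3L, EIF4EBP1, PABPC1 and PABPC4. A run of 5 or more C or T, opened by a C within 3 bases of the start, was sought on the strand with the mRNA's sequence. It was found in 26.4% of the 72 promoters and in 13.0% of all 35116 promoters. Among promoters of protein-coding genes with 1 TPM or more in a library, the share was 14.02%. CACGTG, which reads the same on both strands, was sought only in the 250 bases before the start. It was found there in 18.1% of the 72 promoters, against 6.34% of all promoters and 8.18% of those of the expressed protein-coding genes. Among 11 promoters of genes on a list of known TOP mRNAs written from background knowledge, 9 held the pyrimidine run. Among the 61 promoters of the other members, 16.4% held it, near the share in expressed protein-coding genes. A match describes these letters only, and its absence says nothing about a factor.

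Windows of 30 bases around the start are given below only for members with the run, picked from the most abundant and those that differed most between the libraries. Other such members had a promoter entry without the run, among them the abundant EEF1G, EIF5A and EIF4A1 and, of those that differed most, EIF5B. The capitals mark the pyrimidine run:
EEF1A1 (chr6:73521013-73521042, minus strand): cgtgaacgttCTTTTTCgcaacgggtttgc
EEF1B2 (chr2:206159885-206159914, plus strand): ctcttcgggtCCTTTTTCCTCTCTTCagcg
EEF2 (chr19:3985444-3985473, minus strand): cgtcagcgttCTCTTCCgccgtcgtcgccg
EIF2A (chr3:150546777-150546806, plus strand): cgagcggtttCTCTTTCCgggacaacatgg
EIF3F (chr11:7987327-7987356, plus strand): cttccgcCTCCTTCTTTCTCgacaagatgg
EIF3M (chr11:32583821-32583850, plus strand): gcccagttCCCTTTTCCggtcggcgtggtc
EIF4B (chr12:53006446-53006475, plus strand): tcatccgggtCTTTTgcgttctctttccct

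EEF1B2 had the longest run of the 7, at 16 bases, and EIF4B the shortest, at 5. CACGTG was found in promoters of 13 members, of which 4 are shown as examples. The next windows show the E-box in capitals in 4 promoters, where its first base lay 68 bases before the start in EIF3F, 54 in EIF1B, 22 in EIF4B and 13 in EIF4EBP3:
EIF1B (chr3:40309641-40309670, plus strand): gcgcgggacggtCACGTGggaggggccgcg
EIF3F (chr11:7987257-7987286, plus strand): aaagctctagctCACGTGgtgtatattcag
EIF4B (chr12:53006422-53006451, plus strand): gcccgctataatCACGTGattgcctcatcc
EIF4EBP3 (chr5:140547632-140547661, plus strand): gttgttgccagcagctgCACGTGgtcggct

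Of the genes shown, EIF3F and EIF4B carried both motifs, at separate positions. EIF3K and EIF4G1, whose windows are not shown, also had both, in EIF4G1 in different promoters.

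Values are in TPM as the authors deposited them, a unit that gives each transcript's part of a library after correction for its length. TPM does not keep the number of reads, so the depth is unknown and no interval is given. DDX52 in the shDDX52 libraries was 24.6% of its control in 22RV1 (4.88 to 1.20 TPM) and 22.5% in PC3 (9.20 to 2.07 TPM). MYC was at 169 TPM (shCON) and 147 TPM (shDDX52) in 22RV1, compared with 192 and 122 TPM in PC3. The markers checked were higher in the cell line of their label, though not all separated the lines clearly. The prostate luminal marker KLK2 was at 32.6 (shCON) and 23.1 TPM (shDDX52) in 22RV1 but listed at 0 in both PC3 libraries. CAV1 was at 162 and 130 TPM in PC3 and under 1 TPM in 22RV1. The luminal marker HOXB13 was also present in PC3, at 39.9 and 34.1 TPM, against 89.9 and 105 TPM in 22RV1. VIM, a mesenchymal marker, was at 8.08 and 5.57 TPM in 22RV1 and at 12.6 and 66.7 TPM in PC3. The libraries also differed in composition, since ribosomal RNA genes went from 1.21% of TPM with shCON to 0.0872% with shDDX52 in 22RV1 but from 0.0923% up to 3.13% in PC3. Mitochondrially encoded genes took 9.81% (shCON) and 13.0% (shDDX52) of 22RV1 TPM, compared with 8.10% and 10.3% of PC3 TPM. The part of composition in the results was not tested, but each direction given for members and their role groups was recomputed with TPM scaled to nuclear protein-coding genes only, after removal of mitochondrially encoded genes and of the 20 highest, and centred on the median of all genes.

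First, the overall level of the machinery was examined. The 66 genes summed to 22617 TPM (shCON) and 20695 TPM (shDDX52) in 22RV1, and to 19623 and 17924 TPM in PC3. EEF1A1 alone accounted for 894 of the 1922 TPM between the 22RV1 libraries and for 457 of the 1699 TPM between the PC3 libraries. Without members that have near-identical copies, the log2 ratio of the sums went from −0.13 to −0.075 in both cell lines. Their share of the library was 2.29% with shCON and 2.09% with shDDX52 in 22RV1, and 1.98% and then 1.82% in PC3. Relative to nuclear protein-coding genes alone, the share was 2.70% and 2.495% in 22RV1 but 2.24% in both PC3 libraries, so the lower sum in PC3 was not seen on that scale. Between 63 and 64 of the 66 genes reached 1 TPM in each library, and 29 to 32 reached 100 TPM. The 8 most abundant genes of each library held between 57.3% and 59.4% of the summed TPM.

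The elongation factors stood at the top of this order. EEF1A1, the main carrier of aminoacyl-tRNA to the ribosome, was at 3043 TPM with shCON and 2148 TPM with shDDX52 in 22RV1, and at 3365 and 2908 TPM in PC3. Pairs of values below follow this order. EEF1G, a subunit of the exchange complex that reloads eEF1A with GTP, was at 2662 and 2620.4 TPM in 22RV1 and at 1930.1 and 1757 TPM in PC3. EEF2, the translocase, was at 2389 and 2319 TPM in 22RV1 and at 885 and 1015 TPM in PC3. EEF1A1 was thus the most abundant member in 3 of the 4 libraries and ranked after EEF1G and EEF2 in 22RV1 shDDX52.

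EIF5A, which helps the ribosome through difficult peptide bonds, was the highest EIF gene, at 1876 and 1839 TPM in 22RV1 and at 1294 and 1073 TPM in PC3. EIF4A1, the helicase of the cap-binding complex, was at 1006 and 949 TPM in 22RV1 and at 991 and 776 TPM in PC3. EEF1D and EEF1B2, the other exchange subunits, were at 745 and 783 TPM and at 655 and 586 TPM in 22RV1, and at 1058 and 1099 TPM and at 862 and 692 TPM in PC3. PABPC1, the main cytoplasmic poly(A)-binding protein, was at 801 and 604.5 TPM in 22RV1 and at 859 and 950.4 TPM in PC3. It was lower with shDDX52 in 22RV1 and higher in PC3.

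**Figure D1:**
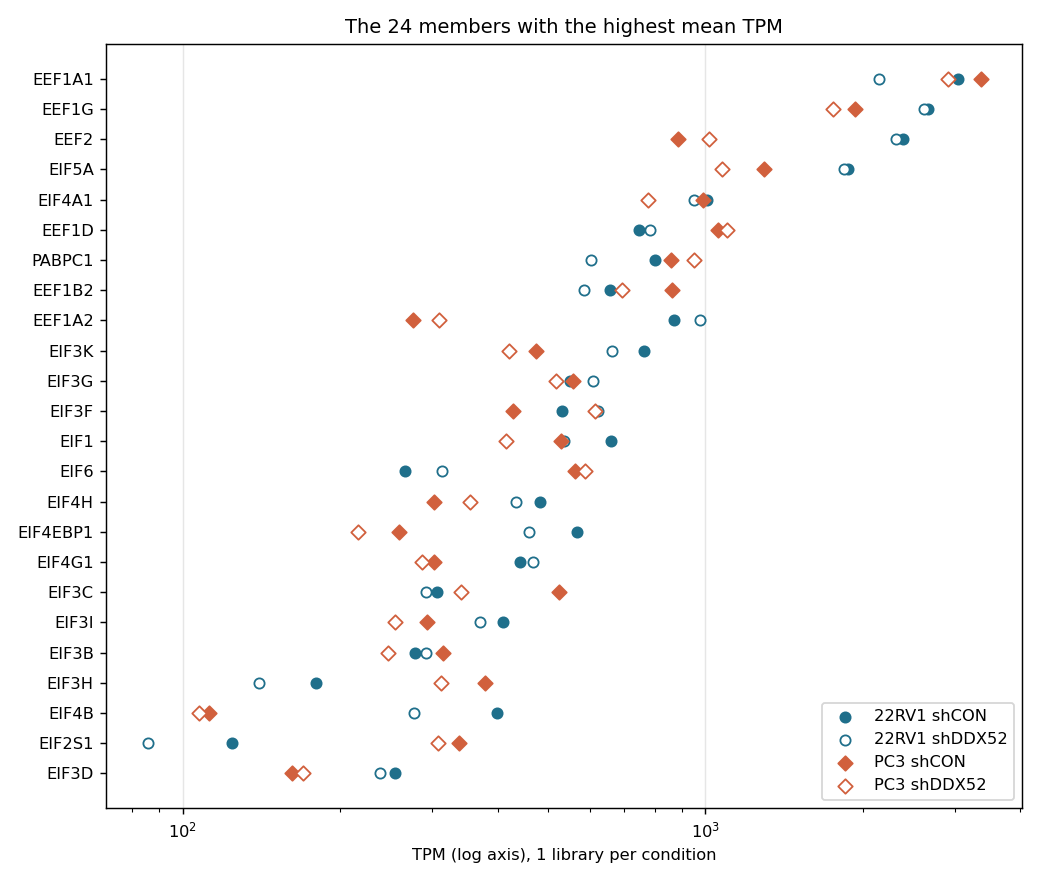
TPM (log axis) of the 24 members with the highest mean over the 4 libraries, with filled symbols for shCON, open symbols for shDDX52, circles for 22RV1 and diamonds for PC3, 1 library per symbol. EEF1A1 lies at 2148 to 3365 TPM, and EIF4B and EEF1A2 show the wide gaps between the cell lines.

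The question of the comparison with shCON was whether the translation factor mRNAs differed after DDX52 knockdown. The change was expressed as the log2 ratio, log2((TPM shDDX52 + 1)/(TPM shCON + 1)), for genes with 1 TPM or more in either library of a cell line. The added 1 TPM makes the change of low genes look smaller. In 22RV1, 47 of 64 members lay below 0 with a median log2 ratio of −0.13, while 58.8% of all 14438 genes lay below 0 with a median of −0.076. In PC3, 45 of 63 members lay below 0 with a median of −0.13, while 53.5% of all 14262 genes lay below 0 with a median of −0.036. When TPM was scaled to nuclear protein-coding genes, the median of those genes in PC3 moved from −0.033 to 0.087 and that of the members to −0.00085, with 32 of 64 below 0. The members' median therefore stood below that of the genes compared in both cell lines under each scaling, with a difference of −0.058 to −0.053 in 22RV1 and of −0.095 to −0.085 in PC3. Among genes with 50 TPM or more, the medians were −0.14 for members and −0.021 for all genes in 22RV1, but −0.13 and −0.12 in PC3, so the PC3 members lay near other abundant genes. In bulk RNA, a lower level in each cell and fewer cells with the transcript cannot be told apart.

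These shifts were small. At a fold of 1.5, 3 of 64 members (4.69%) were lower in 22RV1 shDDX52 and 1 (1.56%) was higher, where the background over all genes was 8.47% lower and 5.61% higher. At 2-fold, 0 of 64 were lower and 0 higher, against 2.86% and 2.24% of all genes. In PC3, 4 of 63 members (6.35%) were at least 1.5-fold lower and 1 (1.59%) higher, against 9.84% and 8.95% of all genes. At 2-fold, 1 of 63 was lower and 0 higher, against 3.44% and 2.86%. The members' shares past each fold thus lay under those of all genes, as counts without a test. After centring, 1 of 64 members was 1.5-fold lower in 22RV1, against 6.43% of all genes. With nuclear protein-coding scaling, 2 members were 1.5-fold lower and 3 higher in PC3, against 5.42% and 11.2% of nuclear protein-coding genes.

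**Figure D2:**
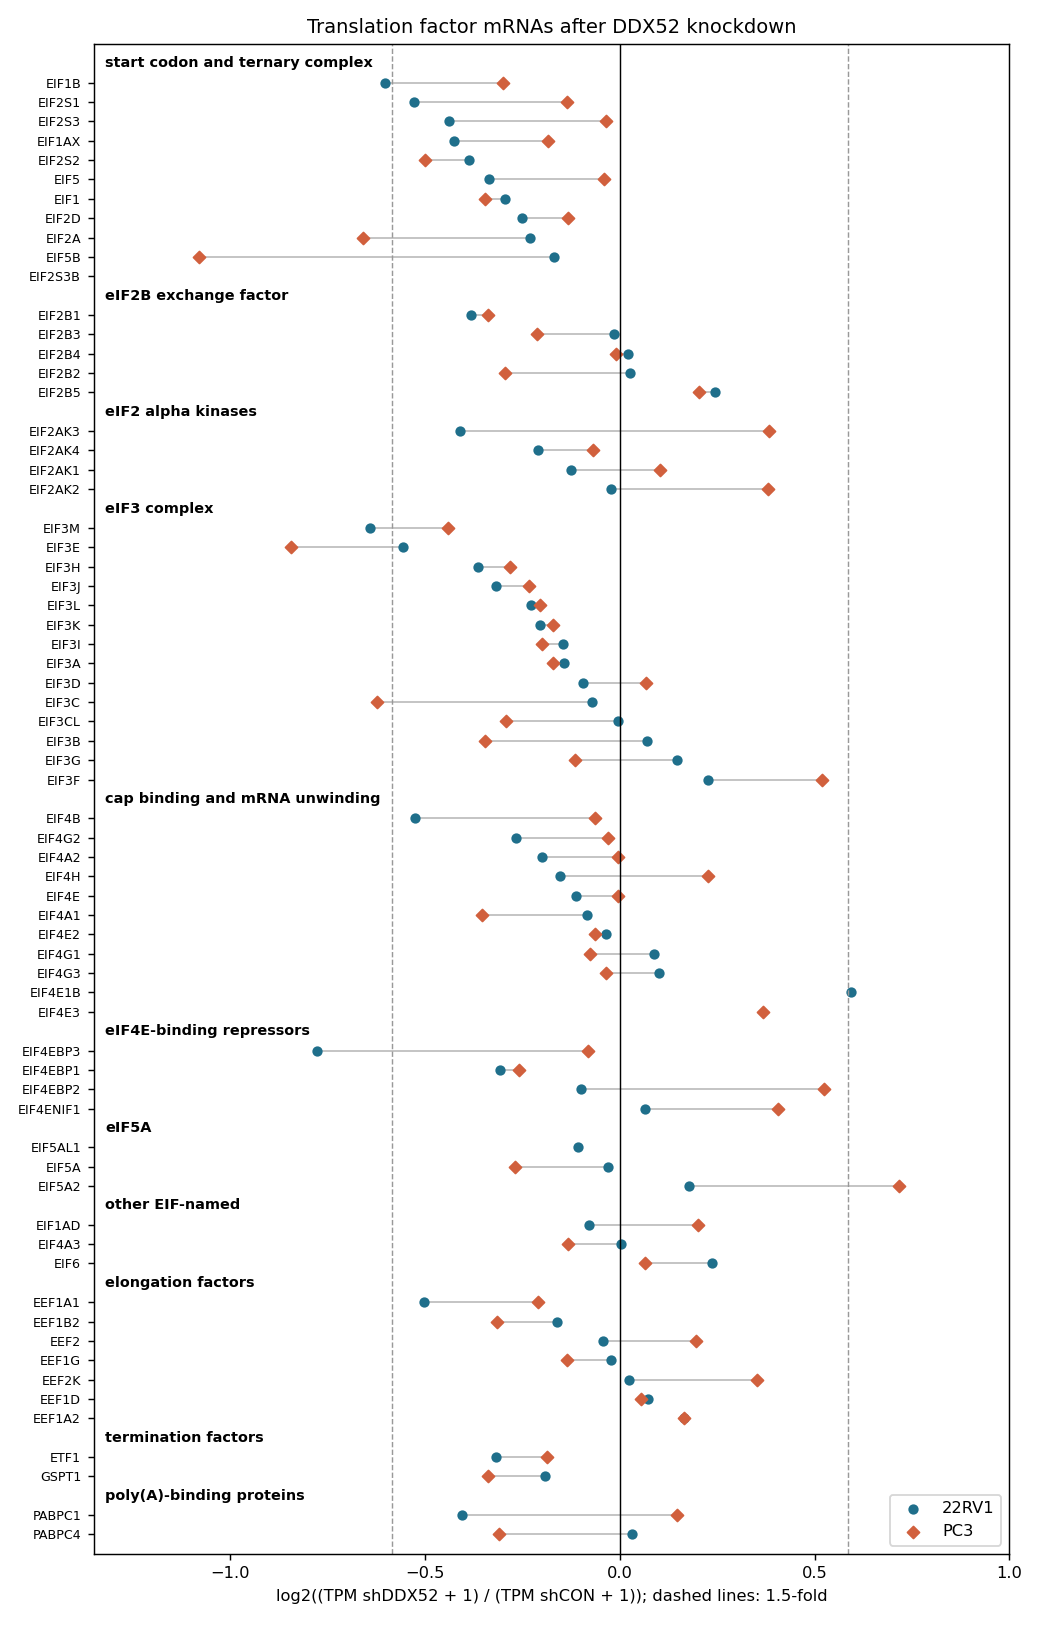
Log2 ratio of shDDX52 over shCON for each member, grouped by role, with circles for 22RV1 and diamonds for PC3 and dashed lines at 1.5-fold; a symbol is missing where neither library reached 1 TPM. All 10 measured start codon and ternary complex genes lie left of 0 in both cell lines, with medians of −0.36 and −0.24.

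The factors for the start codon and the ternary complex were lower in the shDDX52 library for 10 of 10 measured genes in both 22RV1 (median −0.36) and PC3 (median −0.24). Among all genes, 58.8% lay below 0 in 22RV1 and 53.5% in PC3. In 22RV1 all 10 stayed below 0 under each scaling, whereas in PC3 9 of 10 did so after centring and 8 of 11 with nuclear protein-coding scaling, which brought in EIF2S3B. EIF1B, a close relative of the start codon scanning factor EIF1, was at 44.1 and 28.7 TPM in 22RV1 (−0.60) and at 28.7 and 23.1 TPM in PC3 (−0.30). EIF1 itself was far more abundant, at 659 and 537 TPM in 22RV1 and at 528 and 415 TPM in PC3 (−0.29 and −0.35). EIF1B made up between 5.07% and 6.27% of the 2 genes' summed TPM in the 4 libraries.

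The 3 subunits of eIF2 were each lower in both cell lines, except EIF2S3 in PC3 after centring or nuclear protein-coding scaling. EIF2S1, the alpha subunit that the stress kinases phosphorylate, was at 124 and 85.8 TPM in 22RV1 (−0.53) and at 338 and 308 TPM in PC3 (−0.14). EIF2S2, the beta subunit, was at 54.5 and 41.5 TPM in 22RV1 (−0.39) and at 128 and 90.1 TPM in PC3 (−0.50). EIF2S3, the GTP-binding gamma subunit, was at 37.1 and 27.1 TPM in 22RV1 (−0.44) and at 89.6 and 87.4 TPM in PC3, where its log2 ratio of −0.035 turned to 0.094 with nuclear protein-coding scaling. Its autosomal copy EIF2S3B stayed under 1 TPM in each library as deposited, and passed 1 TPM in PC3 shDDX52 only after 2 of the scalings, with log2 ratios of 0.51 and 0.54.

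The lowest log2 ratio of any member belonged to EIF5B, the GTPase that joins the large ribosomal subunit at the end of initiation. EIF5B (ENSG00000158417, chromosome 2 from 99337353 to 99401326 in GENCODE 29) was at 17.1 and 15.1 TPM in 22RV1 (−0.17) and at 41.6 and 19.1 TPM in PC3 (−1.08). The PC3 shDDX52 level therefore came close to the level of the 22RV1 libraries. EIF2A, a separate protein that can bring initiator tRNA to some start codons, was at 29.8 and 25.2 TPM in 22RV1 (−0.23) and at 46.9 and 29.4 TPM in PC3 (−0.66). The other members of the group, EIF1AX, EIF5 and EIF2D, lay between −0.43 and −0.25 in 22RV1 and between −0.18 and −0.041 in PC3, where EIF5 was above 0 with nuclear protein-coding scaling.

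The genes that control eIF2 differed among themselves. Of the 5 eIF2B subunits, 2 were below 0 in 22RV1 (median 0.020) and 4 in PC3 (median −0.21). EIF2B5, the catalytic epsilon subunit, was higher with shDDX52 in both, at 58.8 and 69.8 TPM in 22RV1 (0.24) and at 53.0 and 61.2 TPM in PC3 (0.20). EIF2B1, the alpha subunit, was lower in both, with log2 ratios of −0.38 and −0.34. Of the 4 eIF2 alpha kinases, 4 were below 0 in 22RV1 (median −0.17, with EIF2AK2 above 0 after centring or without the highest genes) and 1 of 4 in PC3 (median 0.24).

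EIF2AK2, the double-stranded RNA-activated kinase PKR, was at 5.80 and 5.70 TPM in 22RV1 and at 9.78 and 13.0 TPM in PC3 (0.38). EIF2AK3, the endoplasmic reticulum stress kinase PERK, was at 2.71 and 1.79 TPM in 22RV1 (−0.41) and at 2.81 and 3.97 TPM in PC3 (0.38). All 4 of its values were under 5 TPM. EIF2AK4, the amino acid sensor GCN2, was at 19.1 and 16.3 TPM in 22RV1 and at 61.8 and 58.9 TPM in PC3.

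The eIF3 scaffold contributed 17.2% to 20.1% of all member TPM. Of its 14 genes, 11 were below 0 in 22RV1 (median −0.15) and 12 in PC3 (median −0.22), and the medians stayed below 0 under each scaling. The subunits were not at 1 level: in a single library the highest exceeded the lowest 17.7-fold to 23.99-fold, with EIF3A or EIF3J lowest and EIF3K, EIF3G or EIF3F highest.

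EIF3E and EIF3M had the lowest log2 ratios of the complex in 22RV1, and EIF3E also in PC3. EIF3E was at 93.6 and 63.3 TPM in 22RV1 (−0.56) and at 248 and 138 TPM in PC3 (−0.84). EIF3M (ENSG00000149100, chromosome 11 from 32583798 to 32606262) was at 136 and 87.2 TPM in 22RV1 (−0.64) and at 216 and 159 TPM in PC3 (−0.44). Both encode PCI domain subunits. EIF3H, EIF3J, EIF3K, EIF3L, EIF3I and EIF3A were also lower in both cell lines under each scaling, with log2 ratios between −0.36 and −0.14 in 22RV1 and between −0.28 and −0.17 in PC3.

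EIF3F, which encodes an MPN domain subunit, went the other way. It was at 532 and 623 TPM in 22RV1 (0.23) and at 429 and 615 TPM in PC3 (0.52), above 0 under each scaling. A processed copy of EIF3F had 12.7 and 11.5 TPM in the PC3 libraries and 0.83 and 1.39 TPM in 22RV1. How reads shared with this copy were assigned is not known, and its part in the EIF3F values was not tested. EIF3C, another PCI subunit, was at 306 and 292 TPM in 22RV1 (−0.070) and at 525 and 341 TPM in PC3 (−0.62), but shares nearly all of its sequence with EIF3CL. EIF3CL was at 109 TPM in both 22RV1 libraries and at 138 and 112 TPM in PC3, and reads may have been divided between the pair. Their sum was at 415 and 401 TPM in 22RV1 and at 663 and 453 TPM in PC3, so the lower PC3 value did not depend on the division.

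EIF3B and EIF3G, which sit in 1 module of the complex with EIF3I, differed in sign between the cell lines. EIF3B was at 279 and 292 TPM in 22RV1 (0.070) and at 314 and 247 TPM in PC3 (−0.35). EIF3G was at 549.5 and 609 TPM in 22RV1 (0.15) and at 559 and 516.5 TPM in PC3 (−0.11, which became 0.016 with nuclear protein-coding scaling).

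At the cap, 7 of 10 measured genes were below 0 in 22RV1 (median −0.098) and 8 of 10 in PC3, where the median of −0.033 turned to 0.0035 after centring and to 0.090 with nuclear protein-coding scaling. EIF4B, which stimulates the eIF4A helicase, was at 399 and 277 TPM in 22RV1 (−0.52) and at 112 and 107 TPM in PC3 (−0.064). EIF4A1 had log2 ratios of −0.084 and −0.35. Its paralogue EIF4A2 was at 53.1 and 46.1 TPM in 22RV1 and at 67.9 and 67.8 TPM in PC3, and EIF4A3 was at 188 TPM in both 22RV1 libraries and at 179 and 163 TPM in PC3. EIF4A1 kept 77.1% to 80.6% of the sum of the 3 helicases.

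The cap-binding protein EIF4E, often raised in cancer, was at 49.0 and 45.2 TPM in 22RV1 and at 41.3 and 41.2 TPM in PC3. EIF4E2, a cap-binding relative that represses mRNAs, was the more abundant, at 191 and 186 TPM in 22RV1 and at 110 and 105 TPM in PC3. EIF4E3 stayed under 2 TPM in each library. EIF4E1B, a relative known from germ cells, was at 1.14 and 2.23 TPM in 22RV1, listed at 0 in PC3 shCON and at 0.30 TPM in PC3 shDDX52. It was the 1 member more than 1.5-fold higher in 22RV1 and stood at a low level in each library.

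Of the scaffold proteins, EIF4G1 was at 441 and 468 TPM in 22RV1 and at 303 and 287 TPM in PC3. EIF4G2, which lacks the eIF4E binding site and serves cap-independent initiation, was at 176 and 147 TPM in 22RV1 (−0.27) and at 211 and 207 TPM in PC3. EIF4G2 made up 27.9% and 23.3% of the EIF4G sum in 22RV1 and 40.4% and 41.2% in PC3. EIF4G3 was at 8.11 to 14.9 TPM.

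The repressors that bind eIF4E held the lowest log2 ratio in 22RV1. EIF4EBP3 (ENSG00000243056, chromosome 5 from 140547666 to 140549578) was at 63.2 and 36.4 TPM in 22RV1 (−0.78) and at 1.88 and 1.72 TPM in PC3. The gene lies at the end of ANKHD1, and its values overlap 2 other gene models: the ANKHD1-EIF4EBP3 readthrough was at 11.4 and 5.33 TPM in 22RV1 and at 6.30 and 3.62 TPM in PC3, and ANKHD1 was at 33.2 and 23.6 TPM in 22RV1 and at 23.3 and 27.4 TPM in PC3. All 3 gene models were thus lower in 22RV1 shDDX52. EIF4EBP1, the main 4E-BP, was at 568 and 459 TPM in 22RV1 (−0.31) and at 259 and 216 TPM in PC3 (−0.26).

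EIF4EBP2 was at 18.1 and 16.9 TPM in 22RV1 (−0.098) and at 13.7 and 20.1 TPM in PC3 (0.52). EIF4ENIF1, which carries eIF4E into the nucleus and into P-bodies, was at 12.9 and 13.6 TPM in 22RV1 (0.066) and at 7.71 and 10.6 TPM in PC3 (0.41). As a group the 4 repressors had a median of −0.20 in 22RV1 and 0.16 in PC3, with 3 and 2 genes below 0. EIF4EBP1 supplied 87.5% to 94.3% of the 4E-BP sum in each library.

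Among the elongation factors, 4 of 7 were below 0 in 22RV1 (median −0.022, which became 0.053 after centring) and 3 of 7 in PC3 (median 0.056). EEF1A1 was lower with shDDX52, with log2 ratios of −0.50 and −0.21. EEF1A2, its paralogue of muscle and nerve that some tumours express, was higher, at 870 and 975 TPM in 22RV1 (0.16) and at 276 and 310 TPM in PC3 (0.17). EEF1A2 thus made up 22.2% of the EEF1A sum in 22RV1 shCON and 31.2% in 22RV1 shDDX52, and 7.58% and 9.62% in PC3. Of EEF1A1's 49 annotated processed copies, the summed TPM was 2.80 to 5.93 in a library, which is little beside the parent gene.

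EEF2 had log2 ratios of −0.043 and 0.20, and EEF2K, the kinase that halts it, was at 14.9 and 15.1 TPM in 22RV1 and at 3.87 and 5.22 TPM in PC3 (0.35). Of the exchange subunits, EEF1B2 was lower in both cell lines (−0.16 and −0.32) and EEF1D slightly higher in both (0.072 and 0.056). EIF5A had log2 ratios of −0.029 and −0.27. Its relative EIF5A2 was at 1.36 and 1.67 TPM in 22RV1 and at 1.96 and 3.86 TPM in PC3 (0.72), the 1 member more than 1.5-fold higher there and again at a low level. EIF6 was at 266 and 313 TPM in 22RV1 (0.24) and at 562 and 589 TPM in PC3 (0.066).

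The termination factors ETF1, which reads stop codons, and GSPT1, its GTPase partner, were both lower in both cell lines under each scaling. ETF1 was at 32.03 and 25.5 TPM in 22RV1 (−0.32) and at 35.8 and 31.4 TPM in PC3 (−0.19). GSPT1 was at 95.6 and 83.5 TPM in 22RV1 (−0.19) and at 83.5 and 65.8 TPM in PC3 (−0.34). The poly(A)-binding proteins differed in sign in each cell line. PABPC1 had log2 ratios of −0.41 and 0.15, and PABPC4 was at 149 and 152 TPM in 22RV1 (0.031) and at 92.0 and 74.0 TPM in PC3 (−0.31). The share of PABPC4 in the sum of both was 15.7% and 20.1% in 22RV1 and 9.68% and 7.22% in PC3.

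**Figure D3:**
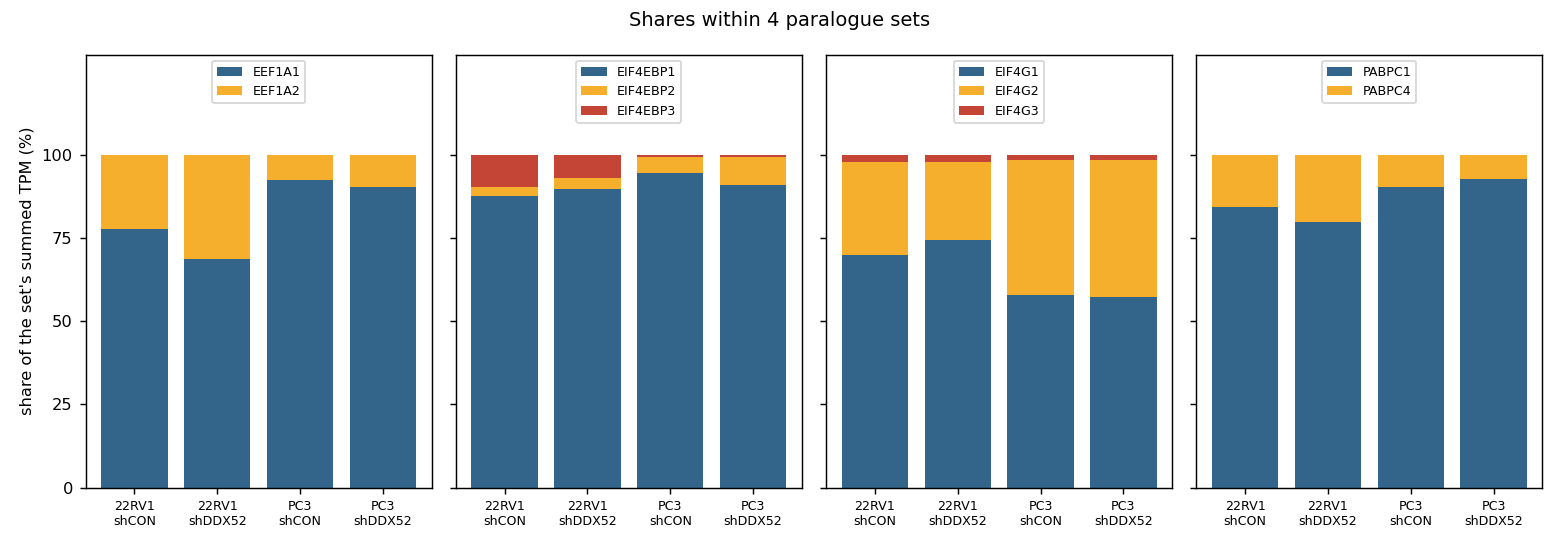
Share (%) of each gene in the summed TPM of its paralogue set for EEF1A, 4E-BP, EIF4G and PABPC, with 1 stacked bar per library. The EEF1A2 share is 22.2% and 31.2% in 22RV1 but 7.58% and 9.62% in PC3, and EIF4EBP3 is visible mainly in 22RV1.

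Next, the cell lines were set against each other. Of 62 members with a log2 ratio in both, 37 (59.7%) were below 0 in both and 8 (12.9%) above 0 in both, where 32.5% of 12175 genes were below and 18.5% above in both. Among genes with 50 TPM or more in either library of each cell line, the shares below 0 in both were 60.5% of 38 members and 37.2% of 2022 genes. With nuclear protein-coding scaling, 41.9% of the members and 24.1% of 11009 nuclear protein-coding genes were below 0 in both, where 32.7% of such genes were so as deposited. Across the 62 members, the Spearman correlation of the log2 ratios in 22RV1 and PC3 was 0.37, and across all genes it was 0.012. The points share the same 4 libraries and genes are not independent, so this is a description.

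In all, 23 of the 62 members were below 0 in both cell lines under each scaling. No share over all genes was computed for this count, for the 8 above 0 or for the 1.5-fold counts in both, so these are listings only. They included both termination factors, EIF1, EIF1B, EIF1AX, EIF2S1, EIF2S2, EIF2A, EIF2D and EIF5B of the start codon group, and EIF3A, EIF3E, EIF3H, EIF3I, EIF3J, EIF3K, EIF3L and EIF3M of eIF3. The remaining ones were EEF1A1, EEF1B2, EIF2B1, EIF4A1 and EIF4EBP1. The 8 members above 0 in both under each scaling were EEF1A2, EEF1D, EEF2K, EIF2B5, EIF3F, EIF4ENIF1, EIF5A2 and EIF6. None of the 62 was 1.5-fold lower in both cell lines or 1.5-fold higher in both.

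**Figure D4:**
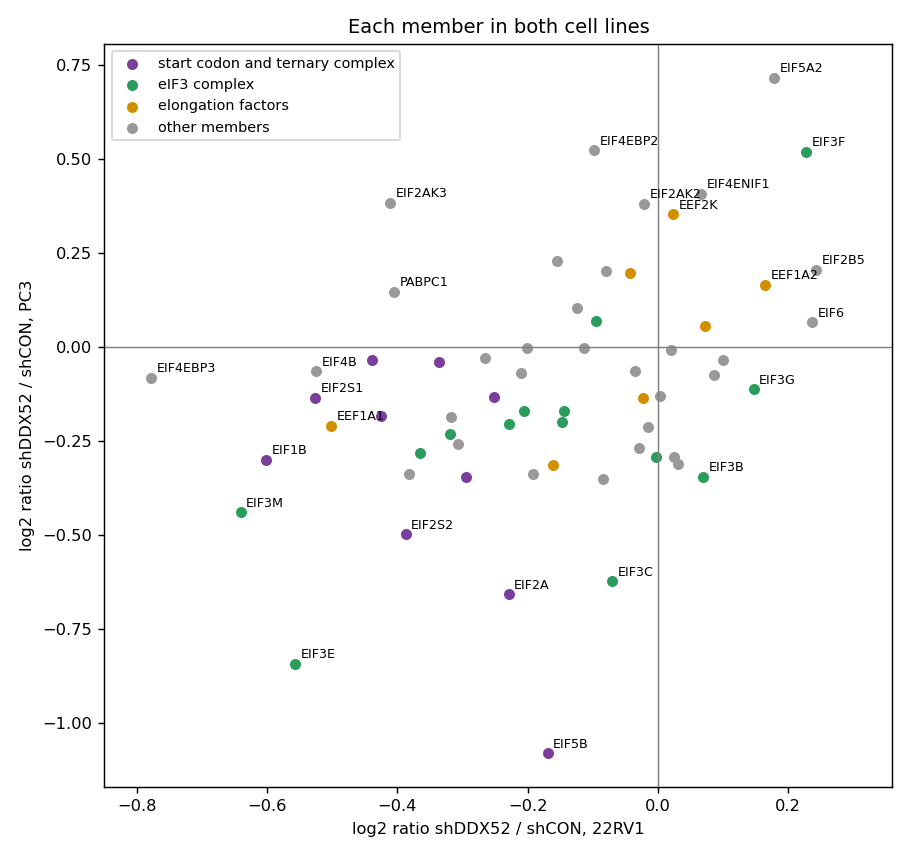
Log2 ratio of shDDX52 over shCON in 22RV1 (x axis) and PC3 (y axis) for the 62 members measured in both, coloured by role. Of the 62 points, 37 lie in the lower left field, with EIF3E and EIF3M far out in both cell lines and EIF5B far out in PC3 alone.

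The control libraries showed how much the machinery differed between the cell lines without knockdown. TPM was computed for each cell line in its own table, so these levels were set by each library's own composition. The median log2 ratio of PC3 shCON over 22RV1 shCON was −0.15 for 65 members and −0.067 for all 15727 genes. At 1.5-fold, 17 members (26.2%) were lower in PC3 and 14 (21.5%) higher, against 32.2% and 29.3% of all genes. At 2-fold, 8 members (12.3%) were lower and 8 higher, against 21.3% and 19.9%. The members' shares thus lay under those of all genes at both folds, as counts with no test.

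Among all 15727 genes, 7491 were higher in PC3 shCON and 52.3% were lower. The start codon group was higher in PC3 for 8 of 10 genes, with a median log2 ratio of 0.90. EIF2S1 (1.44), EIF2S3 (1.25), EIF5B (1.24) and EIF2S2 (1.21) were each more than 2-fold higher in PC3. EIF2AK4 was the furthest up of all members, at 1.65, and EIF3E was at 1.39. The 4 repressors that bind eIF4E were lower in PC3 in 4 of 4 cases (median −0.90), led by EIF4EBP3 at −4.48. The 5 eIF2B subunits were lower in 5 of 5 (median −0.21). These 3 directions kept their sign under each scaling.

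EIF4B (−1.82), EEF2K (−1.70), EEF1A2 (−1.65) and EEF2 (−1.43) were also lower in PC3. EIF5AL1, an intronless copy of EIF5A, was at 11.4 and 10.5 TPM in 22RV1 and at 0.25 and 0.15 TPM in PC3. The controls differed by a log2 ratio of −3.31, which depended on the pseudocount and was −5.03 with 0.1 TPM and −1.64 with 5 TPM. Since it shares almost its whole sequence with EIF5A, its reads cannot be told apart with certainty from those of the parent, which was the more abundant by far in each library.

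Features of the transcripts that the symbol rule did not use were compared with the log2 ratios. GC content of the longest coding transcript in GENCODE 29 had a Spearman correlation with the 22RV1 log2 ratio of 0.49 across 64 members and of 0.35 across 11866 protein-coding genes. In PC3 the values were 0.087 across 63 members and −0.027 across protein-coding genes. For PC3 shCON over 22RV1 shCON they were −0.50 across 65 members and −0.17 across 12770 protein-coding genes. The part of GC content in the differences between the controls was not tested. For members under the median GC content of 46.8%, the 22RV1 log2 ratios had a median of −0.29, with 27 of 31 below 0, and for the others the median was −0.029, with 20 of 33 below 0. Protein-coding genes divided at the same GC content had medians of −0.18 and 0.0013, with 3483 of 4674 and 3581 of 7192 below 0. GC content thus moved with the 22RV1 log2 ratio in the whole library as well as in the members, and its part in the members' lower values was not tested.

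Within the low GC class the members' median lay below that of the protein-coding genes in both cell lines, at −0.29 and −0.18 in 22RV1 and at −0.17 and −0.045 in PC3. EIF3M (38.01% GC), EIF3E (38.2%), EIF5B (38.6%), EIF2S1 (39.2%) and EIF2A (39.7%) all belong to it, and so does EIF3F (40.6%), which was higher. The measured start codon and ternary complex genes all belong to it except EIF2D (52.1%). Transcript length had a correlation of 0.014 with the members' log2 ratio in 22RV1 and of 0.32 in PC3, where that of protein-coding genes was 0.28.

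**Figure D5:**
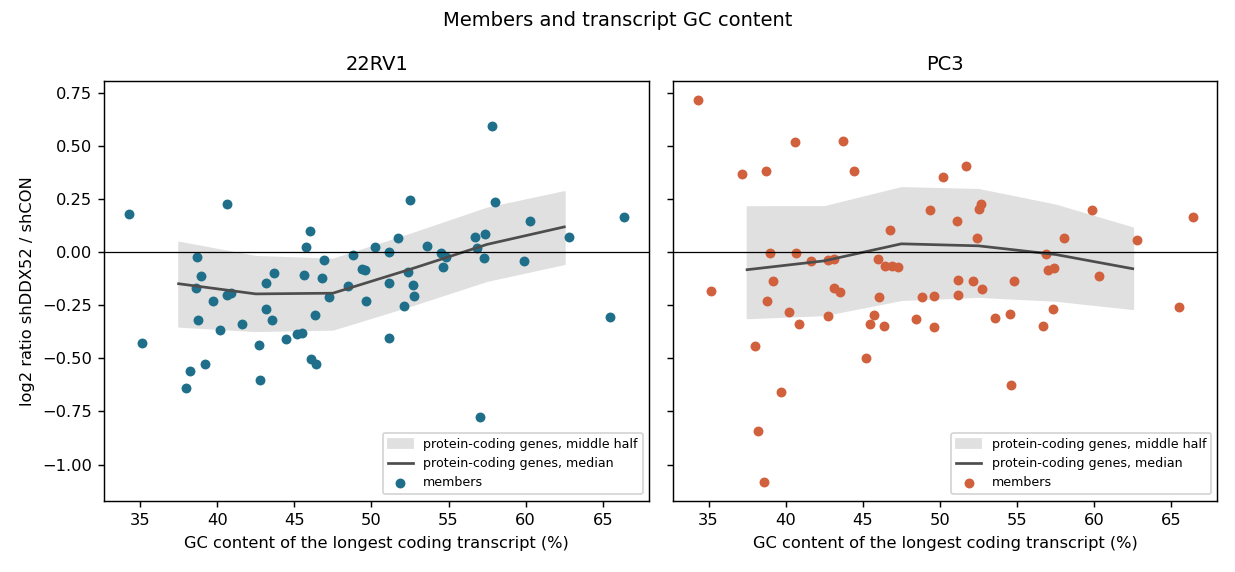
Log2 ratio of shDDX52 over shCON against GC content (%) of the longest coding transcript, with points for members, a line for the median of protein-coding genes in bins of 5% and shading for their middle 50%. In 22RV1 both the points and the line rise from left to right (Spearman 0.49 and 0.35), and in PC3 they do not (0.087 and −0.027).

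The start site motifs were set beside the same values. In 22RV1 the median log2 ratio was −0.21 for 17 members with the pyrimidine run and −0.082 for 34 without it, and in PC3 the medians were −0.065 for 17 and −0.13 for 33. The order thus differed between the cell lines. The 18 genes of the known TOP list had medians of −0.20 and −0.15 in 22RV1 and PC3, with 14 of 18 below 0 in each. Members outside the list had medians of −0.10 and −0.082, with 33 of 46 and 31 of 45 below 0. With nuclear protein-coding scaling, the PC3 median of the list became −0.024, with 10 of 18 below 0. For 13 members with CACGTG the medians were −0.021 (22RV1) and −0.064 (PC3), and without it they were −0.15 (38 genes) and −0.14 (37 genes). Single genes did not follow the medians: EIF4EBP3 and EIF1B, the lowest and the third lowest in 22RV1, carry the E-box.

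Finally, 44 other genes of the translation pathway were counted. In 22RV1, 24 of 42 measured genes (57.1%) were below 0 (median −0.12), against 58.8% of all genes, and 3 (7.14%) were at least 1.5-fold lower and 0 higher, against 8.47% and 5.61%. In PC3, 29 of 43 (67.4%) were below 0 (median −0.10, and 0.014 with nuclear protein-coding scaling), against 53.5% of all genes, and 5 (11.6%) were at least 1.5-fold lower and 1 (2.33%) higher, against 9.84% and 8.95%. The shares past 1.5-fold lower thus lay near the background. PDCD4, an inhibitor of the eIF4A helicase, was at 17.3 and 10.7 TPM in 22RV1 (−0.64) and at 9.51 and 7.18 TPM in PC3 (−0.36). PABPC1L, a poly(A)-binding relative, was at 14.3 and 8.88 TPM in 22RV1 (−0.63) and at 13.8 and 6.86 TPM in PC3 (−0.91).

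EEF1AKMT1 and EEF1AKMT4, lysine methyltransferases that act on eEF1A, were at −0.81 in PC3 and −0.64 in 22RV1, and MCTS1, a partner of DENR in reinitiation, was at −0.63 in PC3. In the other direction, EEFSEC, the selenocysteine elongation factor, was at 0.34, RPS6KB2, a kinase of ribosomal protein S6, at 0.29 and MKNK1, a kinase of eIF4E, at 0.24 in 22RV1. EEF1AKMT3 was at 0.64, LARP1, which binds TOP mRNAs, at 0.53 and DNAJC24, a chaperone for the modification of eEF2, at 0.40 in PC3. LARP1 was at 119 TPM in both 22RV1 libraries and at 29.4 and 42.9 TPM in PC3.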

How the data were processed

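RNA from shCON and shDDX52 cells of the 22RV1 and PC3 lines was sequenced as 1 library each, and the labels gave the groups. Reads were mapped by the authors with the cloud service of their sequencing provider, and TPM values were deposited for Ensembl genes. Submitters' processing notes name CASAVA, HISAT2 and hg19, while 58453 of the 60671 identifiers match GENCODE 29 on GRCh38, so positions given here need not be those behind the values. The quantification program and the annotation release are not given in the sources used here. TPM sums were 984448 to 990860.

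From the deposited TPM, log2 ratios were computed with a pseudocount of 1 TPM, for genes reaching 1 TPM in 1 or both libraries compared. No test was made, and counts stand beside those over all genes. A reading on 1 library per condition says nothing of the spread between cultures. The ratio was checked on simulated data in which only well-expressed genes were shifted and library composition was left unchanged. That check does not cover low genes or composition, nor how precise a shift as small as the members' medians is. Members and gene lists were chosen with earlier results of these data known. Named members were the 8 highest by mean TPM, the 5 furthest down and up in each comparison with at least 5 TPM, those past 1.5-fold with at least 5 TPM, the 4 that differed most in opposite directions, and 10 sets of paralogues. From the other translation genes the 3 furthest down and up in each cell line were named. Members below 5 TPM past 1.5-fold, EEF2 between controls and further paralogue or group examples were named after their values were seen. Promoter sequences are from RefSeq. Other settings were tried for the filter, pseudocount, scaling, near-identical copies and, chosen after seeing the data, a filter of 50 TPM. The gene EIF1AY was outside the rule and is not used here. The computations used Python 3.11.15 with pandas 2.3.3, numpy 2.4.6, scipy 1.17.1 and matplotlib 3.10.9.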

Additional observations from a re-analysis of the deposited data

Results flagged for a closer look

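EIF4EBP2 had a log2 ratio of −0.098 in 22RV1 and 0.52 in PC3, a gap of 0.62 between the cell lines in opposite directions. With 1 library per condition the difference was not tested. Its 4 values were 18.1 and 16.9 TPM in 22RV1 shCON and shDDX52 and 13.7 and 20.1 TPM in PC3 shCON and shDDX52.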

How the results depend on the processing

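Of 75 recomputed values of 9 summary results, 60 stayed within 0.1 on the log2 scale, or within 1.5 times for a count, 15 moved further and 0 changed sign. Within that tolerance, the 22RV1 median went from −0.13 to −0.058 after centring, and the log2 ratio of the summed TPM in 22RV1 from −0.13 to −0.066 after removal of mitochondrially encoded genes and of the 20 highest and to −0.075 without members that have near-identical copies. With nuclear protein-coding scaling, the PC3 median moved from −0.13 to −0.00085 and the log2 ratio of the summed TPM from −0.13 to −0.00092, and the members past 1.5-fold in PC3 became 2 lower and 3 higher. In 22RV1, 1 member was 1.5-fold lower after that removal, and 1 after centring. Of the 3 higher, EIF3F (0.65) and EIF4EBP2 (0.65) were not at low TPM, whereas the members past 1.5-fold higher as deposited had low values: with a pseudocount of 0.1 TPM there were 2 in PC3, and with a pseudocount of 5 TPM or a minimum of 5 TPM there were 0 in either cell line. With a minimum of 50 TPM, chosen after seeing the data, 0 were higher in either cell line, 2 were lower in PC3, and the median of PC3 shCON over 22RV1 shCON was −0.047. At that minimum, the median of all genes in PC3 was −0.12 and that of the members −0.13, while in 22RV1 the values were −0.021 and −0.14. Of 475 recomputed values of 95 single-member results, 424 stayed within 0.1, and 51 moved further. The sign changed in 18 of the 475, over 13 results whose reported log2 ratios were at most 0.11 in size, and in 0 of those past 1.5-fold. TPM gives no depth, so the error of low genes is unknown. No paired analysis was possible because no condition was sequenced more than once.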
